A study of Rattus norvegicus with 24 samples.

Results

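The comparison described here is that of the α1ACT line of PC12 cells as labelled at 3 d against the same line as labelled at 6 h. It rests on 6 of the 24 libraries of the series, 3 per time, chosen by their sample titles. PC12 is a rat line from a pheochromocytoma, a tumour of adrenal chromaffin cells of neural crest origin. The series sequenced total RNA from 2 stable PC12 lines, used at passages 18 to 20, 1 with the empty pcDNA3 vector and 1 that expresses human α1ACT. Each line has 3 libraries per labelled time, and the times are 6 h, 24 h, 3 d and 10 d. The labels give no treatment and do not say from which event the hours and days were counted. With 1 stable line of each kind, an effect of α1ACT cannot be told apart from other differences between these lines. Replicates are called biological but not said to stem from separate cultures, and the p-values then reflect only how these libraries spread, which may be technical.

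The 6 libraries have a second reading. The deposited file names carry a line and a time of their own, and for 18 of the 24 libraries these differ from the label. By file name, the 3 libraries labelled α1ACT at 3 d are α1ACT at 24 h, and the 3 labelled α1ACT at 6 h are the vector line at 24 h. The same numbers are therefore a change over time within the α1ACT line by the labels, and the difference between α1ACT and vector at 1 time by the file names. In what follows groups have their labelled names, "rose" and "fell" mean higher and lower in the libraries labelled 3 d, and by file name they mean higher and lower in α1ACT than in vector at 24 h. Which reading is right cannot be told from the human transgene, since it has no row of its own in the counts. The rat gene Cacna1a stood at 18.1, 16.3 and 14.9 CPM (counts scaled to a common depth) in the 6 h libraries and at 17.4, 15.5 and 18.9 CPM in the 3 d libraries. These ranges overlap, and the difference of 0.07 ± 0.11 (log2, SE) did not pass the test (adjusted p = 0.916).

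CACNA1A encodes the pore subunit of the P/Q-type calcium channel, and a second protein made from its transcript, α1ACT, holds the carboxy-terminal part and enters the nucleus. There it binds chromatin and acts as a transcription factor, and it has been studied for its role in cerebellar Purkinje cells. PC12 cells divide, make and store catecholamines, and can extend neurites and take on traits of sympathetic neurons, which makes genes of the neuronal membrane, vesicles and cytoskeleton the usual readouts.

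The 6 libraries held 10794357 to 12727306 counts on genes, against 8679560 to 14486248 in all 24. Of the reads counted as on genes, outside them or ambiguous, 49.0% to 50.1% lay outside annotated genes. Alignments that were not unique are not part of that total and numbered 75.7 to 91.1 per 100 of it. The level of 3 counts was 0.236 to 0.278 CPM. All 10 chromaffin markers in the table were tested and none was called. Th, the enzyme that limits catecholamine synthesis, spanned 4760 to 5402 CPM at 6 h and 4945 to 5376 CPM at 3 d. Of the markers of other cell types, Col1a2, Lum and Pdgfra (fibroblast), Ptprc (immune), Sox10 (glial), Kdr (endothelial) and Calb1, Zic1 and Neurod1 (Purkinje or granule neuron) had no count in the 6 libraries, while the epithelial genes Krt8, Krt18 and Epcam were present and not called. The fibroblast markers summed to 6.73 to 7.34 CPM at 6 h and 3.15 to 5.65 CPM at 3 d, nearly all of it Dcn, and their part in the results was not tested. In each group replicates 1 and 3 lay closest, at a root mean square difference of 0.226 (6 h) and 0.206 (3 d) log2 CPM over tested genes, and replicate 2 lay 0.244 to 0.259 from them.

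In the fit of all 24 libraries the groups differed in few genes, mostly upward in the 3 d libraries. The channel genes Hcn4 and Kcnh1, the receptor genes Ptger3, Gfra1 and Gfra2, the calcium-binding protein gene S100a5 and the synapsin gene Syn2 rose, and the collagenase gene Mmp13, the haem oxygenase gene Hmox1 and the granule docking gene Sytl4 fell. Of 9994 tested genes 106 passed an adjusted p of 0.05 (1.06%), 80 upward (0.8%) and 26 downward (0.26%). A change of at least 2-fold was seen in 22 of them (0.22%), 20 upward and 2 downward. The signed median was 0.40 on the log2 scale over the 106 genes and 0.0009 over all tested genes. The 3 libraries of one group all lay above those of the other in 105 of the 106, as they did in 1643 of all tested genes (16.4%). In bulk RNA a change in the number of cells that make a transcript cannot be told apart from a change in transcript per cell. The count of 106 depended on single libraries. It was 32 without 3 d replicate 1, 32 without 3 d replicate 3, 35 without 6 h replicate 1, and 59 without 6 h replicate 2. Over the 6 fits that each left out 1 of these libraries it spanned 32 to 137. In alternatives chosen after seeing the data it was 361 without replicate 2 of every group, 8 without replicate 1 of every group and 8 without replicate 3 of every group. Without replicate 2 of every group the upward share of the calls was also smaller. Calls of 22 genes held with each of the 6 libraries left out in turn.

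**Figure D1:**
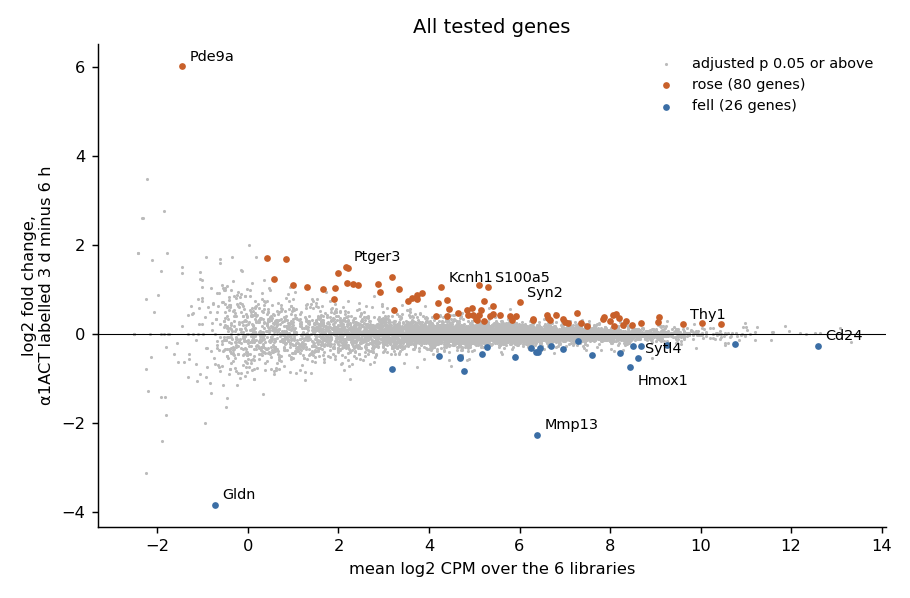
Each point is 1 of 9994 tested genes, with mean log2 CPM over the 6 libraries on the horizontal axis and the fitted log2 fold change of labelled α1ACT 3 d minus 6 h on the vertical axis. The spread narrows with level, the 80 genes that rose are orange and the 26 that fell blue, and Pde9a and Gldn at the left edge rest on few counts.

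The channel genes Hcn4 and Kcnh1 were among the 15 largest rises. The largest rises and falls were drawn only from called genes whose groups did not overlap. Separate groups in those genes therefore add no support of their own. Hcn4 encodes a channel opened by hyperpolarization that carries the pacemaker current. Its level was 2.46, 3.17 and 2.45 CPM in the 6 h libraries and 8.23, 6.06 and 8.29 CPM in the 3 d libraries. All 3 libraries at 3 d lay well above all 3 at 6 h, a 2.79-fold rise (1.48 ± 0.16, adjusted p = 6.47e-06). Its relatives did not pass, with 0.12 ± 0.07 for Hcn2 (adjusted p = 0.579) and -0.05 ± 0.14 for Hcn3 (0.957). Kcnh1, a voltage-gated potassium channel of the ether-à-go-go family, stood at 12.5, 13.2 and 14.3 CPM at 6 h and at 31.5, 22.8 and 29.1 CPM at 3 d. The groups did not overlap, and the rise was 2.09-fold (1.06 ± 0.16, adjusted p = 0.000377). A second member of the potassium channel list rose, Kcnq5, which contributes to the M current (0.42 ± 0.10, adjusted p = 0.0238). Its call ended without 3 d replicate 1 (0.291), 3 d replicate 3 (0.129), 6 h replicate 1 (0.0817) or 6 h replicate 2 (0.194). Of 17 tested potassium channel genes 2 rose and the other 15 did not pass, where 0.8% of all tested genes rose.

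Ptger3 encodes the EP3 receptor for prostaglandin E2, which couples mainly to inhibitory G proteins. It stood at 2.22, 3.25 and 2.28 CPM at 6 h and at 8.84, 5.89 and 7.38 CPM at 3 d. The groups were clear of each other, as the naming rule required, with a 2.86-fold rise (1.51 ± 0.21, adjusted p = 0.000163). Ptger1 and Ptger4, which encode other receptors for the same ligand, had 37 and 6 counts in all over the 6 libraries, and Ptger2 had none. Promoter windows from RefSeq (GRCr8, 300 bases around each annotated start) were searched on both strands for AP-1 (TGANTCA), the cAMP response element (TGACGTCA), the E-box (CACGTG), the GC box (GGGCGG), the antioxidant response element (TGACNNNGC) and TATAAA. They matched 54 of the 80 genes that rose and 18 of the 26 that fell. The window of Ptger3 is shown because it was the largest rise under the naming rule and held a cluster of matches, in capitals. These are 3 GC boxes on either strand, the first of which overlaps an antioxidant response element.
Ptger3 chr2:249264832-249265131, plus strand: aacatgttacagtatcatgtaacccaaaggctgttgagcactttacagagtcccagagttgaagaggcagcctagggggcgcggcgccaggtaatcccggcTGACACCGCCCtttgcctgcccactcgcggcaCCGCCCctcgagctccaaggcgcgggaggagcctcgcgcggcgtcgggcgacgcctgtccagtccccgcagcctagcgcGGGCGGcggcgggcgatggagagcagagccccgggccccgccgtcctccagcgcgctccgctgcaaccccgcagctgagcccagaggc

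The receptors Gfra1 and Gfra2 bind GDNF and neurturin and signal through the kinase Ret. Gfra1 was at 8.95, 11.7 and 10.2 CPM at 6 h and at 20.1, 19.4 and 19.2 CPM at 3 d, a 1.91-fold rise (0.93 ± 0.14, adjusted p = 0.000321). Gfra2 was at 7.39, 3.92 and 6.16 CPM at 6 h and at 14.6, 12.7 and 15.4 CPM at 3 d, a 2.44-fold rise (1.29 ± 0.24, adjusted p = 0.00532). Neither gene's groups overlapped, which the naming rule required of Gfra2. The call of Gfra2 ended without 6 h replicate 2 (0.0512). Ret itself stood at 180.4, 195 and 157 CPM against 154, 194 and 164 CPM, with overlapping groups (-0.06 ± 0.08, adjusted p = 0.900). Of 15 tested neurotrophic receptor genes 2 rose and the other 13 did not pass, where 0.8% of all tested genes rose.

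In the synaptic vesicle and exocytosis list 1 of 28 tested genes rose and 1 fell, where 0.8% of all tested genes rose and 0.26% fell. Syn2 encodes synapsin 2, a phosphoprotein on the surface of synaptic vesicles. It stood at 50.4, 47.1 and 52.0 CPM at 6 h and at 84.5, 82.4 and 80.5 CPM at 3 d. The spread within each group was small beside the gap, and the rise was 1.66-fold (0.73 ± 0.08, adjusted p = 6.47e-06). Syn1, at 16.4, 13.2 and 15.9 against 16.7, 13.7 and 19.3 CPM, did not pass (0.12 ± 0.15, adjusted p = 0.871). Sytl4, or granuphilin, which docks secretory granules through Rab27, stood at 473, 437 and 498 CPM at 6 h and at 324, 327 and 325 CPM at 3 d. The 3 d libraries were almost identical and all below those at 6 h (fell by 0.53 ± 0.09 on the log2 scale, adjusted p = 0.00147). The other 26 of 28 tested vesicle genes did not pass. The window of Syn2 is shown because its call held in every alternative, with its 3 GC boxes, on either strand, in capitals.
Syn2 chr4:149858669-149858968, plus strand: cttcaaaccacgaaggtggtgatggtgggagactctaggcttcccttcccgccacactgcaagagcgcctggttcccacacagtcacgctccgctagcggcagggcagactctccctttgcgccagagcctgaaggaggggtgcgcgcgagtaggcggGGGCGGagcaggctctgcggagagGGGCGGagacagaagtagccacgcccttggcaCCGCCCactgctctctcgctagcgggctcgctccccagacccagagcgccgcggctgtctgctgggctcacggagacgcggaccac

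In the catecholamine list 1 of 12 tested genes was called, beside 1.06% of all tested genes. It was the noradrenaline transporter Slc6a2, at 202, 215 and 197 against 278, 259 and 245 CPM (0.35 ± 0.07, adjusted p = 0.0149). That call ended without 3 d replicate 1 (0.197), 6 h replicate 1 (0.0964) or 6 h replicate 3 (0.0880). Penk, the enkephalin precursor, was the 1 called gene of 9 in the granin and prohormone list, beside the same 1.06%. Its 6 h libraries spread widely, at 1.40, 5.00 and 2.95 CPM, and its 3 d libraries stood at 7.997, 5.64 and 7.20 CPM (1.16 ± 0.28, adjusted p = 0.0359). Its call ended without replicate 1 or replicate 3 of either group (adjusted p = 0.124 to 0.271).

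A few cytoskeletal and growth genes of neurons rose, by small amounts. Of 32 tested genes of neuronal cytoskeleton and neurite growth 4 rose and none fell, where 0.8% of all tested genes rose. Above 0 were 26 of the 32 and 50.3% of all tested genes, and the list's median was 0.16 against 0.0009 for all genes. L1cam, an adhesion molecule of growing axons, stood at 461, 444 and 510.3 CPM at 6 h and at 668, 573 and 625 CPM at 3 d (0.40 ± 0.07, adjusted p = 0.00385). Nefl, the light neurofilament, stood at 232, 227 and 234 against 317, 275 and 338 CPM (0.42 ± 0.08, adjusted p = 0.00758). Prph, the intermediate filament of peripheral neurons, and Stmn2, a tubulin-binding protein of growth cones, rose by less, by 0.24 ± 0.05 (adjusted p = 0.0212) and 0.21 ± 0.05 (0.0496). No group overlapped another in these 4 genes. The calls were not firm: L1cam lost its call without 3 d replicate 1 (0.0599), Nefl without that library (0.0599) or 3 d replicate 3 (0.0856), and Prph and Stmn2 without any 1 of the 6 libraries (0.0550 to 0.183).

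Among 24 tested axon guidance genes 2 rose and 1 fell, where 0.8% of all tested genes rose and 0.26% fell. The ephrin receptor Epha4 stood at 5.17, 4.42 and 5.48 CPM at 6 h and at 14.4, 5.98 and 12.8 CPM at 3 d, where replicate 2 lay close to the 6 h level (1.14 ± 0.26, adjusted p = 0.0256). Its ligand Efnb2 rose by 0.75 ± 0.18 (adjusted p = 0.0286). Netrin-1, Ntn1, a secreted guidance cue, stood at 10.9, 10.5 and 13.7 CPM at 6 h and at 6.92, 6.82 and 6.65 CPM at 3 d (fell by 0.78 ± 0.18 on the log2 scale, adjusted p = 0.0212). Groups were separate in all 3 genes, which the naming rule required of Epha4 and Ntn1. Without 3 d replicate 1 the adjusted p of these genes was 0.312, 0.232 and 0.116, without 3 d replicate 3 it was 0.157, 0.115 and 0.117, and without 6 h replicate 1 it was 0.115, 0.169 and 0.0644. The calls also ended without 6 h replicate 2 for Epha4 (0.147) and Efnb2 (0.175), and without 6 h replicate 3 for Epha4 (0.0711) and Ntn1 (0.124).

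S100a5, an EF-hand calcium-binding protein, rose with little spread. It stood at 27.8, 27.7 and 26.1 CPM at 6 h and at 57.4, 55.8 and 57.6 CPM at 3 d (1.06 ± 0.12, adjusted p = 6.47e-06). Both groups were tight, with SDs of 0.999 and 0.969 CPM (n = 3), far below the gap. The related genes S100a4 (0.16 ± 0.14, adjusted p = 0.809) and S100a6 (-0.08 ± 0.40, 0.978) did not pass. Another relative, S100a10, was called and rose, by 0.265 to 0.407 on the log2 scale with single libraries left out. Of those fits, it kept its call only in the one without 6 h replicate 3 (adjusted p = 0.0398). Prkcdbp (now Cavin3), a component of caveolae, stood at 2.22, 2.92 and 1.94 against 5.46, 6.57 and 6.56 CPM (1.39 ± 0.16, adjusted p = 7.90e-06). Dbc1 (now Brinp1), a neural gene induced by bone morphogenetic protein and retinoic acid, stood at 25.0, 18.9 and 26.5 against 56.4, 43.9 and 51.6 CPM (1.11 ± 0.15, adjusted p = 0.000124). In neither gene did a library cross between groups, which the naming rule required.

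Other rises of the largest 15 were those of Papss2, which makes the sulfate donor PAPS (1.13 ± 0.20, adjusted p = 0.00385), and Sqrdl (now Sqor), which oxidizes sulfide in mitochondria (1.02 ± 0.17, 0.00147). Stk32a, a protein kinase gene, rose by 1.11 ± 0.22, Serpine2, an inhibitor of thrombin-like proteases, by 1.05 ± 0.25, and RGD1562618 (now Insyn1), a protein of inhibitory synapses, by 1.03 ± 0.23. These 3 had adjusted p of 0.0106, 0.0280 and 0.0212, and all lost their calls without 3 d replicate 1, 3 d replicate 3 or 6 h replicate 1 (adjusted p = 0.0617 to 0.223). Calls also ended without 6 h replicate 2 for Stk32a (0.0825) and Serpine2 (0.168), without 3 d replicate 2 for Serpine2 (0.0606) and without 6 h replicate 3 for RGD1562618 (0.105). Pmp22, a membrane protein of myelinating cells that is also made in other cells, was the 1 called gene of 4 tested in the Schwann and glial list (10.3, 10.7 and 9.11 against 17.1, 18.2 and 16.8 CPM, 0.78 ± 0.11, adjusted p = 0.000238). By comparison, 1.06% of all tested genes were called. Thy1, a surface glycoprotein of neurons that stood in the fibroblast list, rose from 718 ± 28.9 to 844 ± 20.1 CPM (SD, n = 3, 0.23 ± 0.05, adjusted p = 0.00906). Its call ended without 3 d replicate 1 (0.1098), 6 h replicate 1 (0.0817) or 6 h replicate 2 (0.0650). With each of the 6 libraries left out in turn, the calls of Hcn4, Kcnh1, Ptger3, Gfra1, Syn2, Sytl4, S100a5, Prkcdbp, Dbc1, Papss2, Sqrdl and Pmp22 held.

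**Figure D2:**
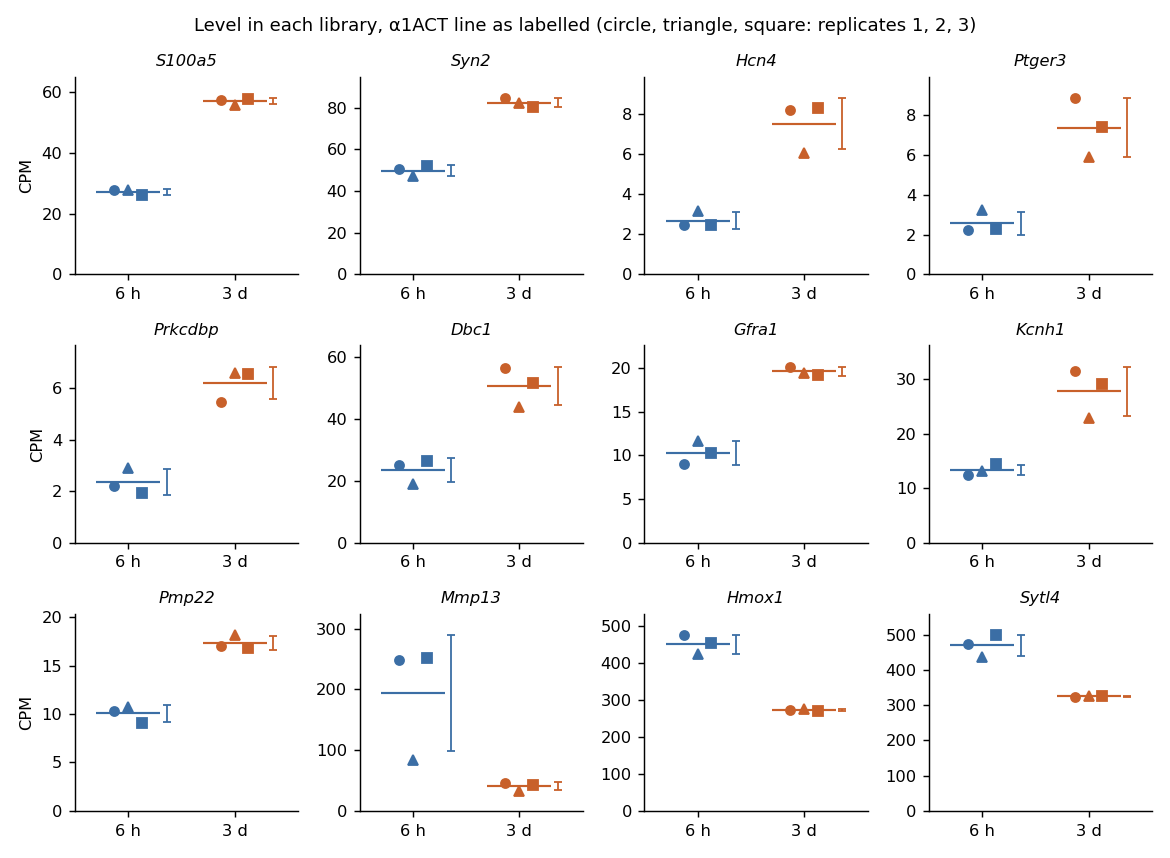
CPM in each of the 6 libraries (vertical axes, from 0) for 12 genes, labelled 6 h in blue and 3 d in orange. Lines are group means, bars beside them the SD (n = 3), and symbols mark replicates 1, 2 and 3. The 12 genes were picked from called genes, nearly all of which had separate groups, and no library crosses between groups here. Mmp13 replicate 2 at 6 h sits at 84.3 CPM below the other 6 h libraries.

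Mmp13, the secreted collagenase 3, fell most under the naming rule. It stood at 248, 84.3 and 251 CPM at 6 h and at 46.0, 33.4 and 42.6 CPM at 3 d. Replicate 2 at 6 h lay far below the other 6 h libraries, and all 3 d libraries lay below it. The fit gave a 4.78-fold fall (-2.26 ± 0.45, adjusted p = 0.0101), which did not pass without 3 d replicate 1 (0.0656), 3 d replicate 3 (0.0664) or 6 h replicate 1 (0.0702). Its promoter window is shown because it held, in capitals, an AP-1 match and, closer to the start, TATAAA.
Mmp13 chr8:12782579-12782878, plus strand: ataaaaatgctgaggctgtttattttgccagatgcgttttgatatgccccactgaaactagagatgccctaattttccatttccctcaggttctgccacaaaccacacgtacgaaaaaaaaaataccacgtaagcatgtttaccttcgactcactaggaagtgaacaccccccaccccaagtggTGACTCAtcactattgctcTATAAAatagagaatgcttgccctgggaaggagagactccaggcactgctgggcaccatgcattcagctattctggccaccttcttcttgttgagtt

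Hmox1, which degrades haem and is a classical target of NRF2, stood at 474, 422 and 452 CPM at 6 h and at 273, 274 and 269.9 CPM at 3 d. The groups lay far apart (fell by 0.72 ± 0.12 on the log2 scale, adjusted p = 0.00174), and the call held with each library left out in turn. It was the 1 called gene of 20 tested NRF2 targets, whose median was -0.03. For this and the 2 lists below, the share called among all tested genes was 1.06%, and 0.26% fell. Mdga1, an adhesion protein that binds neuroligins, stood at 44.5, 32.6 and 32.8 against 18.2, 27.1 and 16.9 CPM (-0.82 ± 0.18, adjusted p = 0.0208). Cacna1c, the pore subunit of an L-type calcium channel, was the 1 called gene of 8 tested calcium channel subunits, at 87.0, 82.1 and 82.4 against 68.7, 68.3 and 67.5 CPM (-0.30 ± 0.07, adjusted p = 0.0184). Ero1l (now Ero1a), the oxidase that drives disulfide bond formation in the endoplasmic reticulum, was the 1 called gene of 34 in the glycolysis and hypoxia list (-0.34 ± 0.08, adjusted p = 0.0271). The groups of Mdga1, Cacna1c and Ero1l were separate, which the naming rule required of Mdga1 and Ero1l. The calls of Mdga1, Cacna1c and Ero1l ended without 3 d replicate 1 (0.197, 0.0905 and 0.169), 3 d replicate 3 (0.172, 0.105 and 0.108) or 6 h replicate 1 (0.208, 0.133 and 0.236), and that of Ero1l also without 3 d replicate 2 (0.0531) or 6 h replicate 2 (0.0570).

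The remaining falls of the largest 15 spanned -0.53 to -0.31 and had adjusted p of 0.00288 to 0.0492. They were the ubiquitin ligases Rnf128 and Rnf144b, the reticulum calcium-binding protein Rcn3, the centrosomal protein Tacc2, the ETS factor Elk3, the melanoma antigen family gene Maged2, the protocadherin Pcdhac2, the LIM protein Pdlim5 and the coactivator Cited2. Maged2 kept its call with each library left out in turn, and Rnf144b lost it only without 3 d replicate 3 (0.0664). The other 7 lost it without 3 d replicate 1, 3 d replicate 3 or 6 h replicate 1 (0.0567 to 0.291). Calls also ended without 6 h replicate 2 for Rcn3 (0.0635) and Elk3 (0.0853), and without 6 h replicate 3 for Pcdhac2 (0.0668), Pdlim5 (0.197) and Cited2 (0.105). Transcripts of the protocadherin cluster share exons, so reads of Pcdhac2 may be split with other members.

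Over all matched windows, the share with each motif was set beside that of all tested genes. A GC box stood in 35 of 54 windows of genes that rose (64.8%), in 8 of 18 of genes that fell (44.4%), in 65.1% of the 8110 tested genes with a window and in 34.9% of all 27457 windows. An AP-1 match stood in 4 windows of genes that rose (7.41%), in 1 of those that fell (5.56%), and in 4.75% of tested genes and 7.33% of all windows. For the antioxidant response element the shares were 12.96%, 22.2%, 14.96% and 12.2%, for TATAAA 11.1%, 11.1%, 6.07% and 14.3%, for the E-box 1.85%, 5.56%, 9.94% and 6.65%, and for the cAMP response element 1.85%, 0%, 3.34% and 1.91%. Such matches are a description of sequence and were not tested.

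The same pair of readings exists at the other times, in 3 comparisons that share no library with this one. These are vector 3 d minus 6 h (by file name α1ACT minus vector at 6 h), vector 10 d minus 24 h (by file name at 3 d) and α1ACT 10 d minus 24 h (by file name at 10 d). The first gave 147 calls (1.47%), 114 upward (1.14%) and 33 downward (0.33%). The second gave 744 (7.44%), 429 upward (4.29%) and 315 downward (3.15%), and the third 462 (4.62%), 221 upward (2.21%) and 241 downward (2.41%). Of the 106 genes, 102, 106 and 101 had the same sign there, against 61.3%, 58.5% and 57.6% of all tested genes. Calls in the same direction were made for 49, 68 and 51 of the 106, which are 33.3%, 9.14% and 11.04% of the calls of those comparisons, and in the opposite direction for none. The sign was the same in all 3 for 97 of the 106, and for 27.8% of all tested genes. Calls were made in all 3 for 26 genes, 23 that rose and 3 that fell, and in none of them for 20. The 4 pairs of groups formed in this way were also the closest by overall expression. The α1ACT 6 h and 3 d groups lay 0.185 apart, the lowest of 28 pairs of groups, the other 3 pairs 0.194 to 0.222, and the next pair 0.369.

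**Figure D3:**
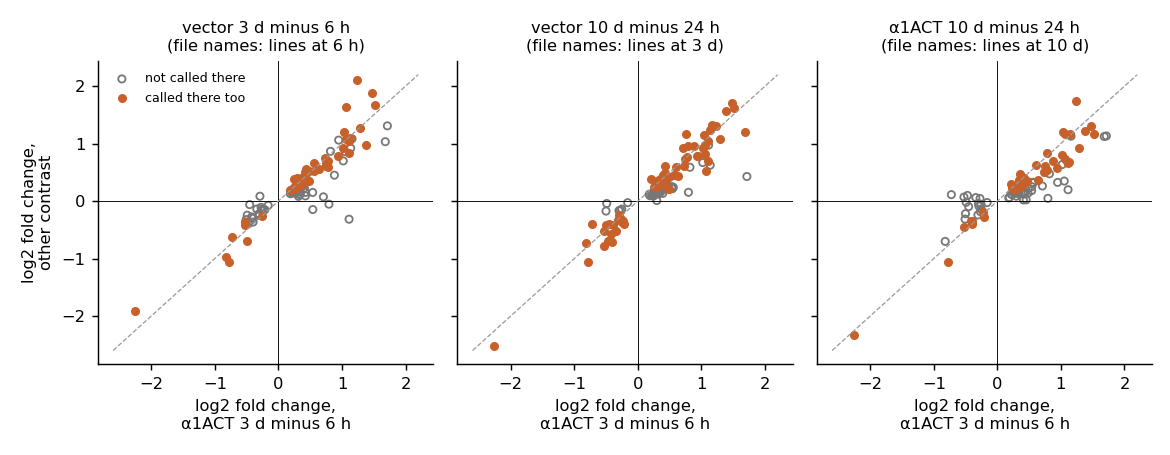
Log2 fold change of called genes in α1ACT 3 d minus 6 h (horizontal) against that in each of 3 comparisons that share no library with it (vertical); filled points were called there in the same direction, the dashed line marks equal change, and Pde9a and Gldn are left out for few counts. Nearly all points lie at the lower left or upper right, with 102, 106 and 101 of the 106 genes of the same sign.

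The levels in all 8 groups show which genes kept 1 step and which also moved with other differences. Syn2 stepped from 57.3 ± 2.74 to 96.6 ± 3.57 CPM in the vector 6 h and 3 d groups, from 58.4 ± 3.99 to 89.5 ± 10.0 in vector 24 h and 10 d, and from 53.3 ± 5.65 to 76.0 ± 4.31 in α1ACT 24 h and 10 d (SD, n = 3). In the α1ACT 6 h and 3 d groups it stepped from 49.8 ± 2.53 to 82.5 ± 2.02 CPM. S100a5 stepped from 17.1 ± 0.732 to 36.1 ± 2.72, from 16.003 ± 3.15 to 23.0 ± 4.44 and from 16.8 ± 3.31 to 38.2 ± 3.49 CPM in the same order, and the α1ACT 3 d group, at 56.9 ± 0.969, was the highest of all 8. Hcn4 went from 1.05 ± 0.316 to 3.88 ± 0.425, from 5.19 ± 0.452 to 16.9 ± 0.844 and from 3.27 ± 0.290 to 8.11 ± 0.434 CPM, so its base level differed between pairs while each pair stepped up. Kcnh1 likewise stepped up from unequal base levels, from 1.34 ± 0.559 to 4.03 ± 1.77, from 13.2 ± 2.57 to 22.9 ± 2.07 and from 18.5 ± 1.66 to 30.7 ± 1.29 CPM. Mmp13 was low in the 4 groups labelled 3 d or 10 d, at means of 35.2 to 47.8 CPM, and at means of 133 to 239.8 CPM in those labelled 6 h or 24 h. Hmox1 did not share this pattern in every pair. It fell in vector 3 d minus 6 h (-0.63, adjusted p = 0.00741) and vector 10 d minus 24 h (-0.40, 0.0388), but stood at 166 ± 43.1 and 180.5 ± 29.6 CPM in α1ACT 24 h and 10 d (0.11, 0.697).

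**Figure D4:**
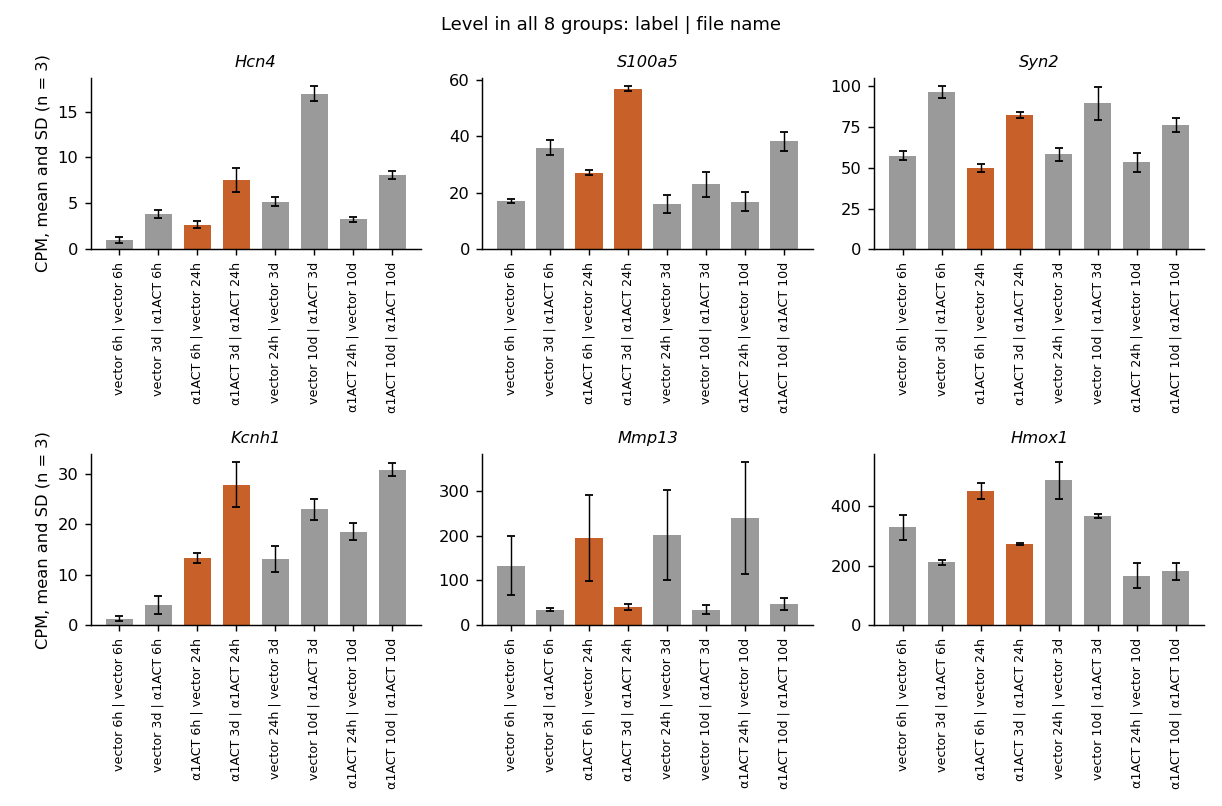
Mean CPM and SD (n = 3) of 6 genes in all 8 groups, each named by label and, after the bar, by file name; the α1ACT 6 h and 3 d groups are orange. Neighbouring bars form the 4 pairs, and within a gene the pairs step the same way, except for Hmox1 in the last.

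Whether the change differed from that in vector 3 d minus 6 h was tested by the interaction, which by labels asks if time acts differently in the lines and by file names if the lines differ differently at 24 h and 6 h. No gene passed in edgeR's test (0%) and none in DESeq2, with 487 (4.87%) and 397 genes at an unadjusted p under 0.05. Fitted on the 12 libraries concerned, 8 genes passed: Ccnb1, Ccnf, Iqgap3, Kif20a, Kif23, Kifc1, Plk1 and Tpx2. They were named after their values were seen, and all were higher in the α1ACT than in the vector difference. Without replicate 2 of every group 14 passed. The 12 positive ones were Ccnf, Kifc1, Aurkb, Cenpf, Mastl, Mdc1, Myh10, Pask, Aloxe3 and the histone genes Hist1h1d, Hist1h2bh and Hist2h4, and the 2 negative ones Btg3 and Ncald.

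Mitosis and spindle genes leaned upward without a call. Of 36 tested, none passed and 35 were above 0, with a median of 0.13, while 50.3% of all tested genes were above 0. The lowest adjusted p was that of Ube2c, which helps the anaphase-promoting complex mark cyclins for degradation (0.29 ± 0.08, adjusted p = 0.100), and 9 members had an unadjusted p under 0.05, as had 1021 of all tested genes (10.2%). Their CPM summed to 6206, 6518 and 6396 at 6 h and to 6972, 6797 and 7355 at 3 d, so the 3 d libraries were all above those at 6 h. In vector 3 d minus 6 h all 36 leaned the other way, with a median of -0.15 and sums of 7974, 7906 and 7986 against 6886, 7333 and 7261 CPM, and again none was called. The interaction was above 0 in all 36, with a median of 0.31 and 25 at an unadjusted p under 0.05 (4.87% of all tested genes), and none passed adjustment. In vector 10 d minus 24 h 11 of 36 were above 0 (median -0.08), and in α1ACT 10 d minus 24 h all were below 0 and 25 fell (median -0.34, 2.41% of all tested genes fell). Ccnb1, the cyclin of mitotic entry, was 0.27 ± 0.09 here (adjusted p = 0.164) and 0.52 ± 0.12 in the interaction. Genes of this list are known to be expressed together in dividing cells, so their counts are not independent of each other. Without replicate 2 of every group 9 of the 36 rose, in a fit that called 201 genes upward in all, while only 8 genes of any kind were called without replicate 1, or without replicate 3, of every group.

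**Figure D5:**
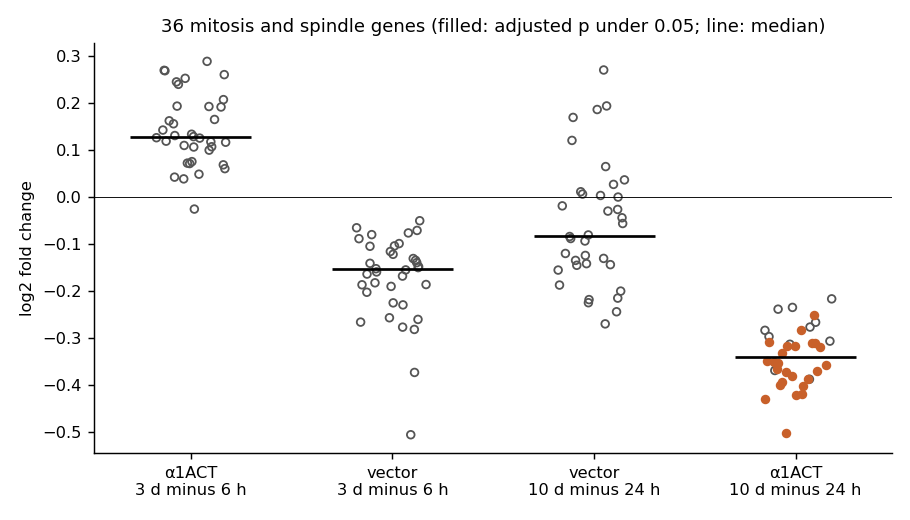
Log2 fold change of the 36 tested mitosis and spindle genes in the 4 comparisons that share no library; filled points passed an adjusted p of 0.05 and bars are medians. The medians are 0.13, -0.15, -0.08 and -0.34, and called genes appear only in α1ACT 10 d minus 24 h.

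Of 41 DNA replication genes 23 were above 0, with a median of 0.02, and none was called. Of 23 histone genes 19 were above 0 (median 0.12), also with no call, and single histone genes are uncertain because near-identical copies can share reads. The 4 genes tied to α1ACT in earlier work, Cacna1a, Atp2b2, Grn and Btg1, did not pass, with differences of 0.07 ± 0.11, 0.08 ± 0.08, -0.05 ± 0.05 and -0.01 ± 0.11. No member was called among 10 AP-1 factors, 17 other immediate early genes, 26 genes of endoplasmic reticulum chaperones and the unfolded protein response, 25 of the integrated stress response, 31 of sterol and fatty acid synthesis, 51 respiratory chain subunits, 70 cytosolic ribosomal proteins or 20 p53 targets. Of 34 interferon and antigen presentation genes 25 were below 0 (median -0.10), with none called. The chaperone list leaned down in 23 of 26 members, by a median of -0.05.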

How the data were processed

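For every library the authors deposited raw read counts by gene symbol. The submitters' processing notes name TopHat2 2.0.10, HTSeq 0.5.4p5, Picard 1.117, FastQC 0.11.2 and edgeR, with build rn5. The role of each tool, the annotation and the strand setting were not given in the sources used here. Without strand, overlapping antisense genes cannot be told apart. Per the labels' protocols, libraries were stranded total RNA with depletion of ribosomal RNA. Summary lines, 5 per table, were left out.

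Of 17055 genes 13187 had a count, and filterByExpr (by group, at least 10 counts and 15 in total) kept 9994. Depth on genes was 10794357 to 12727306 counts in the 6 libraries, and counting intervals and the floor of 3 counts cover counting error only. Tests used the quasi-likelihood method of edgeR 4.0.16 (R 4.3.3) with TMM factors and 1 coefficient per group. A single fit took all 24 libraries, which left 16 residual degrees of freedom, with Benjamini-Hochberg adjustment over 9994 genes at 0.05. The common biological coefficient of variation was 5.75%. Fold changes are given as log2 ± SE unless said otherwise, with CPM after TMM scaling. Distances are on log2 CPM (prior count 2).

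Groups came from the labels, never from file names. Named genes were the 15 largest rises and falls among called genes whose groups did not overlap and whose mean reached 2 CPM, up to 4 called members per list, and the genes tied to α1ACT in earlier work. The same rule for the interaction named none. A gene under this rule is not reported here. The members and the 41 gene lists were chosen with earlier results of these data known. Alternatives were other scaling (RLE factors, library sizes), no filter, DESeq2 1.42.0, fits of only the libraries compared, a replicate block and leaving out replicates. Symbols matched RefSeq names for 16568 genes (97.1%). Promoter windows and coordinates are RefSeq's on GRCr8, not the files' build.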

Additional observations from a re-analysis of the deposited data

How the results depend on the processing

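The 106 calls became 103 with RLE factors, 104 with library sizes only, 145 with no filter on low counts and 123 with DESeq2. A fit of only the 6 libraries gave 160 calls, 111 upward and 49 downward. Leaving out 1 library at a time gave 32 to 137. Without replicate 2 of every group the count was 361, without replicate 1 of every group 8 and without replicate 3 of every group 8. These last 3 were added after seeing the data, and without replicate 2 the upward share was 55.7% in place of 75.5%, with 99 of the 106 among the calls. The causes were not tested. The interaction gave 8 genes with only the 12 libraries compared, 14 without replicate 2 of every group, and 0 with each single library left out. The main fit and the fits that left out libraries did not pair libraries by replicate number, so differences shared by number stayed in their spread. Deviations of same-numbered libraries of the 6 h and 3 d groups correlated at 0.0952, 0.246 and 0.0916. Those of unlike number correlated at -0.151 to 0.0751, and each library correlated best with its own number. With the replicate block 193 genes were called, 141 upward and 52 downward, and they included all 106. Of the 42 named called genes none changed sign in 15 alternatives, and Hcn4, Prkcdbp, Dbc1, S100a5 and Syn2 kept their calls in all of them. Stmn2 lost its call with RLE factors, and Penk and Kcnq5 in the fit of only the 6 libraries. Depth limits genes near 0.236 to 0.278 CPM, the level of 3 counts.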

Other observations

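The genes of this paragraph were picked after their values were seen and stand for no group. Slc18a3, the vesicular acetylcholine transporter, stood at 15.9, 16.2 and 15.5 CPM at 6 h and at 29.7, 23.0 and 29.2 CPM at 3 d (0.78 ± 0.14, adjusted p = 0.00480, and 0.0599 without 3 d replicate 1). Chat, the acetylcholine-synthesizing enzyme whose locus holds Slc18a3, stood at 28.5, 24.1 and 28.2 against 27.1, 25.6 and 26.4 CPM and did not pass (-0.03 ± 0.10, adjusted p = 0.968). P2rx2, an ATP-gated channel, rose from 291, 301 and 293 to 357, 368 and 363 CPM (0.30 ± 0.05, adjusted p = 0.00147), and its call held with each library left out. The nicotinic receptor subunit Chrna7 rose by 0.43 ± 0.09 (adjusted p = 0.0163, and 0.0916 to 0.164 without 3 d replicate 1 or 3 or 6 h replicate 1 or 2). Other subunits did not pass, with 0.19 ± 0.07 for Chrna3 (adjusted p = 0.268), 0.11 ± 0.23 for Chrnb4 (0.934), 0.03 ± 0.07 for Chrnb2 (0.955) and 0.06 ± 0.08 for Chrna5 (0.892). The peptide receptor Prlhr fell, from 243, 269.8 and 181 CPM at 6 h to 158, 187 and 156 CPM at 3 d (-0.47 ± 0.12, adjusted p = 0.0496). It was the 1 called gene whose groups overlapped, and its call ended without 3 d replicate 1 or 3 or 6 h replicate 1 or 2, with adjusted p from 0.237 to 0.295. Cdh2, or N-cadherin, stood at 28.5, 23.7 and 33.9 against 48.4, 39.7 and 56.2 CPM (0.74 ± 0.13, adjusted p = 0.00228), with replicate 2 lowest and replicate 3 highest in both groups, and held its call likewise.

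Of the called genes 2 rested on few counts. Gldn, the adhesion protein gliomedin, had 14, 12 and 22 counts at 6 h and 0, 2 and 1 at 3 d, 15.9 times as many after correction for depth (95% interval from counting alone, 5.13 to 79.9). Pde9a, a cGMP phosphodiesterase, had no count at 6 h and 12, 2 and 11 counts at 3 d, at least 2.79-fold higher against a floor of 3 counts per library. The call of Gldn ended without 3 d replicate 1 (0.213), 3 d replicate 3 (0.123), 6 h replicate 1 (0.0722) or 6 h replicate 3 (0.106). That of Pde9a ended without 3 d replicate 1 (0.140), 3 d replicate 3 (0.1101), 6 h replicate 1 (0.102), 6 h replicate 2 (0.0853) or 6 h replicate 3 (0.0755).

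Genes outside the 106 passed when replicate 2 of every group was left out, a choice made after seeing the data. The neuronal adhesion gene Nrcam was then higher at 3 d by 0.79 ± 0.07 (adjusted p = 1.29e-07), against 0.57 and an adjusted p of 0.0592 with all libraries. Odc1, which starts polyamine synthesis, was lower by -0.69 ± 0.07 (6.64e-07, against 0.0630 with all libraries), and Sprr1a, a gene of regenerating neurons, by -0.88 ± 0.10 (7.50e-06, against 0.0980). Gch1, which makes the cofactor of tyrosine hydroxylase, was lower by -0.47 ± 0.07 (0.000181, against 0.164). Lgals3, or galectin-3, was lower by -0.62 ± 0.06 (1.95e-06), against -0.27 and 0.616 with all libraries.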
